A study of Homo sapiens with 4 samples.

Results

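The highest scoring m7G peaks of HL60 cells were the rows of the HL60 peak list whose score, the number given to each peak in column 5, lay at or above the 95th percentile of that list. They were chosen by this score and by nothing else. The threshold was 686.79, and 405 of 8070 rows reached it, which is 5.02% of the list by the construction of the rule. HL60 is an established human line of promyelocytic leukaemia cells, labelled WT in this series. HL60/MX2 is its drug-resistant counterpart, selected with the topoisomerase poison mitoxantrone. Both lines were cultured alike, poly(A) RNA was treated with a decapping enzyme and broken into fragments, and fragments bound by an m7G antibody were sequenced beside an input library. One enriched and 1 input library were made for each line, so 4 libraries in all, and the peak lists of the enriched libraries are the data used here. With 1 library per line there was no replicate and no test, and the depth of the libraries is not known. The scale of the score is not stated.

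N7-methylguanosine carries a methyl group on the N7 position of guanine and a positive charge. It is best known as the cap at the 5′ end of mRNA, where it protects the message and recruits translation initiation factors, and it also occurs inside tRNA, rRNA and mRNA. METTL1 with its partner WDR4 is the writer best known at internal sites. Decapping before the antibody step is meant to leave the internal sites.

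The coding sequences of 5 members are shown first because they were the highest scoring members of 60 to 300 bp that lay wholly in coding sequence. Capitals mark bases covered by a 50-mer, a run of 50 bases, that occurs more than once in the hg19 genome on either strand.
ANTXRL: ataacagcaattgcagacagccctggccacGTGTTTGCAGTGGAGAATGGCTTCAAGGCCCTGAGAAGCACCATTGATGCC
PALD1: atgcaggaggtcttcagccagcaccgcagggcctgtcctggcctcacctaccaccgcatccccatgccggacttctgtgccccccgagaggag
POTEM: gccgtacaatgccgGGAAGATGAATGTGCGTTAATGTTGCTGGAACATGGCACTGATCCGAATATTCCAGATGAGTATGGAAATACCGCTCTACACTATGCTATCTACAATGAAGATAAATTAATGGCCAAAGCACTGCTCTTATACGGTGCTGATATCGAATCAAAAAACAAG
LPA: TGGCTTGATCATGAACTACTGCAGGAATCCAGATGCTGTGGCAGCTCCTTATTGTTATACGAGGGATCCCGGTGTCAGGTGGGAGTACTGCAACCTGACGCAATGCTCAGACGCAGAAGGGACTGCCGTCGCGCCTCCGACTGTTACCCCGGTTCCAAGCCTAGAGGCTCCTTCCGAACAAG
GAGE12G: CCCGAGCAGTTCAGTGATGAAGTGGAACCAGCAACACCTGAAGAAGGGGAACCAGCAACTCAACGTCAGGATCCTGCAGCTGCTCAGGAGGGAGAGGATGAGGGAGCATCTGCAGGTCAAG
Their positions in hg19 were chr10:47669067-47669147 on the plus strand, chr10:72299426-72299518 on the plus strand, chr14:19558991-19559164 on the plus strand, chr6:161045062-161045243 on the minus strand and chrX:49336707-49336827 on the plus strand. LPA and GAGE12G consisted of repeated sequence from end to end, POTEM was repeated over 160 of its 174 bases and ANTXRL over 51 of 81, while PALD1 held none. LPA encodes apolipoprotein(a), whose kringle domains are near-identical copies, and GAGE12G and POTEM belong to families of closely related primate genes. For these members, which copy gave the reads is not known.

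A further 4 members in coding sequence are shown because they overlapped a peak of HL60/MX2, a list that the score threshold did not use. Capitals mark the bases that both peaks covered.
C2CD6: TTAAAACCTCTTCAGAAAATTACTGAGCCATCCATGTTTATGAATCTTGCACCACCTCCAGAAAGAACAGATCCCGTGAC
UNC13A: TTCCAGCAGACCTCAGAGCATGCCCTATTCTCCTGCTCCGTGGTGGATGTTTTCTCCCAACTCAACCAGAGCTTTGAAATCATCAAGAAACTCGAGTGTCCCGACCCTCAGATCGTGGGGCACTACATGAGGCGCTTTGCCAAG
ST8SIA1: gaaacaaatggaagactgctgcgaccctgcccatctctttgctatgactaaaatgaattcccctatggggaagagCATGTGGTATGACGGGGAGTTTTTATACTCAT
CHP2: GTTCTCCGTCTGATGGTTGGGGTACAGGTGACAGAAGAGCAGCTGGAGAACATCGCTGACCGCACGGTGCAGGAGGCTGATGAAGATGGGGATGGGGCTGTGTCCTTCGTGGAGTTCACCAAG
They lay in hg19 at chr2:202436664-202436743 on the minus strand, chr19:17740954-17741097 on the minus strand, chr12:22440121-22440227 on the minus strand and chr16:23768522-23768644 on the plus strand. The ST8SIA1 peaks had 32 bases in common, and the other 3 members were covered by the HL60/MX2 peak over their whole length.

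Scores of the members ran from 686.79 to 3177.45 with a median of 875 and quartiles of 748 and 1097. Of the 405, 265 scored below 1000, 117 from 1000 to under 2000 and 23 at 2000 or above. Many scores recurred exactly: the members held 295 distinct values, 16 of them tied at the threshold and 8 stood at exactly 3100, a value that 53 rows of the HL60/MX2 list also had. Whether the peak caller set 3100 as a ceiling for some rows is not stated, and 3 members lay above it. Members in ACTR3C, SGK3 and the 3′UTR of CD40LG, which encodes CD40 ligand, stood at the threshold itself. The nearest rows outside it lay in SLAMF9 at 685, CNTN2 at 684 and NKX2-8 at 683, so the threshold did not fall in a gap of the scores.

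**Figure D1:**
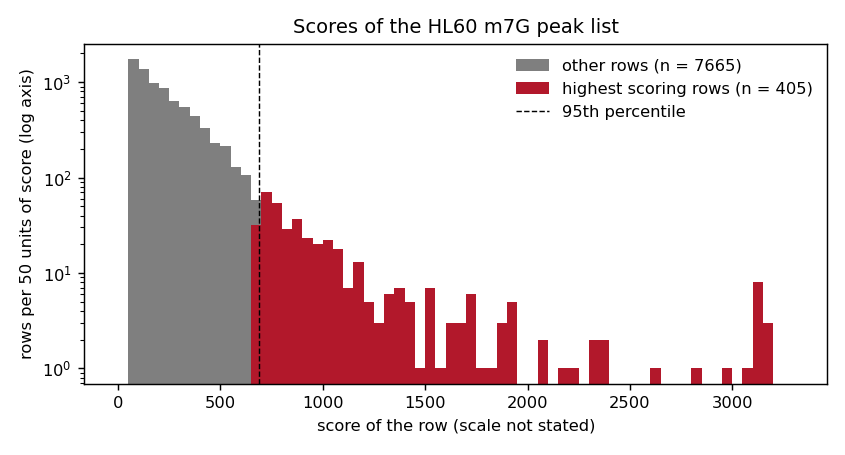
Number of HL60 rows (log axis) in steps of 50 units of score, with the 405 highest scoring rows in red, the 7665 other rows in grey and the 95th percentile, 686.79, as a dashed line. The counts fall without a break across the threshold, and a small group stands at 3100 and above.

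The highest score, 3177.45, belonged to the ANTXRL peak shown above, which covered an internal coding exon of a gene related to the anthrax toxin receptors. SMYD3, a lysine methyltransferase, followed at 3177.35 and MOB4, a member of the striatin phosphatase complex, at 3174.97. The members at 3100 lay in IGFN1, PALD1, POTEM, ZNF236, LPA and MUC12 and, for the remaining 2, over no protein-coding exon. The IGFN1 row, in a gene with immunoglobulin-like and fibronectin domains, was 3095 bp long, and that of the transmembrane mucin gene MUC12 was 7608 bp long, the longest member. GAGE12G, a cancer-testis antigen gene, scored 3057.6 and the zinc finger gene ZNF585A 2992.6. The next members in genes were ENSG00000261832 at 2642, an entry that overlaps NPIPB7, then PARP12, which encodes a mono-ADP-ribosyltransferase, at 2373, PLEKHH2 at 2323, the sorting nexin gene SNX32 at 2323 and the kinase gene LMTK3 at 2210. Of the top 20 members, 4 lay over no protein-coding exon and 9 had at least 50% of their 50-mers repeated in the genome.

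A protein-coding exon on the same strand lay under 383 of 405 members (94.6%, exact 95% interval 91.9 to 96.6) and under 96.0% of the other rows (95.5 to 96.4). The intervals cover counting error only. Members were given to the gene with the largest exon overlap, and 10 of them overlapped exons of more than 1 gene. The 383 rows fell in 370 genes, of which 358 had 1 member, 11 had 2 and NEB had 3. For 177 genes the member was the only peak of the gene in HL60, and for 188 the gene had another HL60 peak below the threshold. TTN, the giant sarcomere protein titin, had 30 peaks in HL60 and 1 member, at 702. In ADAMTS20, a secreted metalloproteinase, the member stood at 738 and the other 5 peaks between 96.8 and 310. In ANO3, of the anoctamin family, it stood at 843 and the other 4 between 116 and 276. In both of these genes 1 row reached the threshold and no other came near it. That did not hold for every gene: rows below the threshold reached 607 in TTN and 611 in ZNF236.

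The 3 members in NEB, the thin-filament ruler nebulin of skeletal muscle, scored 1189, 1007 and 907 among 9 HL60 peaks, and each lay in coding exons with at least 97.5% of 50-mers repeated. Nebulin contains blocks of duplicated exons. AMY1C, a salivary amylase gene, had 2 peaks in HL60 and both were members, at 1902 and 728. The same held for GOLGA6A at 1245 and 963, DYNAP at 1040 and 765, RP13-996F3.5 at 1074 and 1038, and the zinc finger gene ZNF558 at 836 and 724. COL4A2, a basement membrane collagen, had 2 members of 5 peaks, both at exactly 779.4. Further pairs lay in HYDIN (1412 and 905), a gene of motile cilia, LAMA3 (1037 and 900), a laminin chain, PIEZO2 (1050 and 911), a mechanically gated channel, PREX2 (1310 and 800), a Rac exchange factor, and MUC12 (3100 and 914). Both members in AMY1C, GOLGA6A, RP13-996F3.5 and HYDIN, and the MUC12 member at 3100, also had at least 50% of their 50-mers repeated. The gene given to such rows, or the copy within that gene, is uncertain.

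The shares of members and other rows lay further apart, as a ratio, for sequence repeated in the genome than for mRNA region, length class or GC content. For each row the 50-mers of its sequence, widened to 100 bp where shorter, were counted over the whole genome on both strands. At least 50% of the 50-mers occurred more than once in 58 of 405 members (14.3%, 11.1 to 18.1), against 359 of 7661 other rows (4.69%, 4.22 to 5.18). The share was 6.36% (4.19 to 9.18) in the rows just below, from the 90th to under the 95th percentile. Within the members it was 9.88% (6.85 to 13.7) from the 95th to under the 99th percentile and 32.1% (22.2 to 43.4) in the top 81. The rise was therefore steepest inside the highest scores. With 100-mers the shares were 11.6% (8.65 to 15.1) and 3.33% (2.94 to 3.75). The HL60/MX2 list, which was not used to choose the members, had 4.71% in the lower 50% of its own scores, 8.31% (5.55 to 11.9) from the 95th to under the 99th percentile and 14.6% (7.80 to 24.2) in its top 82. How the aligner and peak caller treated reads with several matching places is not given in the sources used here, and the part of such reads in the score was not tested.

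**Figure D2:**
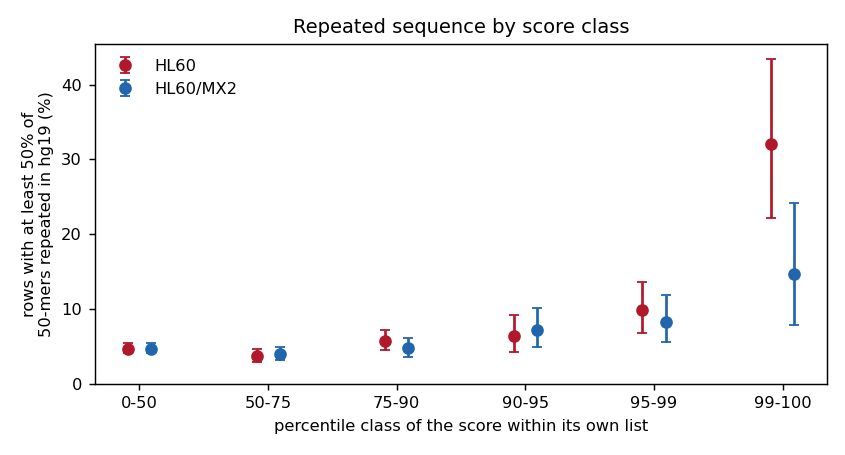
Share of rows with at least 50% of their 50-mers repeated in hg19, in %, by percentile class of the score within each list (points, with exact 95% intervals for counting error). In HL60 the share is 4.70% in the lowest class and 32.1% in the highest, and in HL60/MX2 4.71% and 14.6%.

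Among the 58 members of repeated sequence, 40 had every 50-mer repeated. The median 50-mer occurred at 2 places in 16 of them, at 3 to 9 places in 32 and at 10 or more in 10. NBPF8, of the neuroblastoma breakpoint family, held the most common one, at 59 places, with a score of 829. The deubiquitinase genes USP17L19 (1803) and USP17L12 (1684) had 23 and 20 places and the nuclear pore complex interacting family members NPIPA8 (1929) and NPIPA5 (1281) had 10 each. Members without a gene were often of this kind: 11 of the 22 over no protein-coding exon had repeated sequence (50%, 28.2 to 71.8), against 47 of the 383 over one (12.3%, 9.16 to 16.0). The other rows showed the same order at lower levels, with 41 of 309 (13.3%, 9.69 to 17.6) and 318 of 7353 (4.32%, 3.87 to 4.82). The counts did not separate places in the same gene from places in other genes. For each of these 47 members the gene, or the copy within it, is uncertain.

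Some members shared sequence with one another. In 9 pairs, 18 members in all, both rows, widened to 100 bp where shorter, held the same 50-mer. For rows shorter than 50 bp the shared 50-mer included bases beside the peak. GOLGA6C at 1536 and GOLGA6A at 1245 were each 81 bp, NPIPA8 and NPIPA5 each 129 bp, and ENSG00000261832 at 2642 and a row over no protein-coding exon at 2804 each 196 bp. MRC1, the mannose receptor of macrophages, and its hg19 copy MRC1L1 each had a member of 5 bp, at 761 and 751. AMY1C with AMY1B, CTAGE9 with CTAGE8 and RP11-467N20.5 with GOLGA6L1 were further pairs, 2 of the NEB members formed another, and FAM230A was paired with a row over no protein-coding exon. The 405 rows are therefore not 405 independent sequences. Repetition inside the row itself, as in the tandem repeats of mucins, was seen in 8 members (1.98%, 0.857 to 3.85) and in 17 other rows (0.222%, 0.129 to 0.355).

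The gene lists that follow were matched by patterns of gene symbols and do not hold every gene of a kind. The list of duplicated primate gene families held 141 HL60 rows, of which 20 were members (14.2%, 8.88 to 21.1, beside 5.02% of all rows). POTEM and GAGE12G led it, followed by NPIPA8 and USP17L19. Of its 20 members, the beta-defensin gene DEFB121 at 687 held no repeated 50-mer. Other lists lay closer to the share of all rows. Olfactory receptor genes had 6 members of 64 rows (9.38%, 3.52 to 19.3), with OR51E1 at 1538 in the 3′UTR, OR1L3 at 1331, OR1J2 at 1086 and OR10K1 at 798. C2H2 zinc finger genes had 14 of 216 (6.48%, 3.59 to 10.6), led by ZNF236, ZNF585A, ZFP37 at 1117 and ZNF518B at 977. Kinesin and dynein genes, the motors of microtubules, had 6 of 93 (6.45%, 2.40 to 13.5), among them KIF5C at 1730, DNAH3 at 1391, DYNC2H1 at 1356 and DNAH5 at 870. Sarcomere genes had 5 of 68 (7.35%, 2.43 to 16.3), with MYOM3 at 1739 above the NEB rows. Mucin genes had 3 of 33 (9.09%, 1.92 to 24.3), the pair in MUC12 and MUC2 at 1424. All these intervals except that of the duplicated families reach below 5.02%.

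Transport and adhesion genes gave small counts. Potassium and sodium channel genes had 4 members of 67 rows (5.97%, 1.65 to 14.6), KCNU1 at 1097, KCNK10 at 843, KCNH4 at 790 and KCNMA1 at 748. Solute carrier genes had 6 of 180 (3.33%, 1.23 to 7.11), led by the bicarbonate transporter SLC4A10 at 1073 and the organic anion transporter SLCO4C1 at 872, with the kidney cotransporter SLC12A1 at 790 and SLC5A12 at 748 after them. Collagen genes had 4 of 69 (5.80%, 1.60 to 14.2), with COL25A1 at 1094 and COL6A5 at 693 beside the COL4A2 pair. ABC transporter genes had 1 of 48 (2.08%, 0.0527 to 11.1), ABCC12 at 800. The lists of calcium channels (CACNA2D2, 707, of 27 rows), of ionotropic and metabotropic glutamate and GABA-A type receptors (GRIK4, 1044, of 48), of classical cadherins and protocadherins (CDH4, 1054, of 50) and of chaperones (DNAJC1, 800, of 25) each gave 1 member. GABBR1, a GABA-B receptor subunit, at 1507 and the desmosomal cadherin gene DSG4 at 828 were members outside these lists, named after their values were seen. Keratin genes had KRT1 at 1166 and KRT20 at 822 of 32 rows (6.25%). The DNA repair list, matched by symbol alone, had PARP12 and the translesion polymerase REV1 at 894 of 35 (5.71%). POLI at 881 and HELQ at 716 were members outside that list. Ubiquitin peptidase and HERC genes had the USP17L members alone of 45 (4.44%). For every list of this paragraph the exact interval covered the 5.02% of all rows.

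No member lay in the listed chromatin modifier genes (0 of 46 rows, which allows a share of up to 6.52%), in spectrin, plakin and dystrophin genes (0 of 30, up to 10%) or in RNA modification and cap enzyme genes (0 of 28, up to 10.7%). The same was true of translation initiation factor genes (0 of 15, up to 20%), AML driver genes (0 of 9), mitochondrial ribosomal protein genes (0 of 8), proteasome genes (0 of 7), ribosomal protein genes (0 of 6) and histone genes (0 of 4). These limits are 3 counts over the number of rows, and the exact upper bounds for the first 4 lists were 7.71, 11.6, 12.3 and 21.8%. SMYD3 and INO80C, named elsewhere as members, also act on chromatin but have symbols outside that list. SETBP1 at 1120, MYH11 at 805 and CDKAL1 at 872 were members whose symbols also lie outside all lists of this paragraph. A count of 0 thus holds for the listed symbols only, not for every leukaemia, RNA modification or chromatin gene. Each limit lies above 5.02%, so no shortage of members was detectable with so few rows. Of 13 promyelocyte and myeloid marker genes, CTSG alone had a row in HL60. CTSG encodes cathepsin G, a serine protease of azurophil granules, and its 17 bp row over the start codon was a member at 729, with no CTSG row in HL60/MX2. MPO, ELANE, PRTN3, AZU1 and the other 8 had no HL60 row. Of these, CD33, ITGAM and CSF3R each had 1 row in HL60/MX2, and the rest had none there. A peak is not a level of RNA, so the list cannot serve as a check of the cell type.

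The members could be placed on the longest coding transcript of their gene in 331 cases, as could 6263 other rows. Coding sequence held 214 of the 331 (64.7%, 59.2 to 69.8), against 63.7% (62.5 to 64.9) of the other rows. The 3′UTR held 59 (17.8%, 13.9 to 22.4) against 21.4% (20.4 to 22.5), the 5′UTR 18 (5.44%, 3.25 to 8.46) against 3.26% (2.83 to 3.73), the 100 nt on each side of the start codon 26 (7.85%, 5.20 to 11.3) against 7.03% (6.405 to 7.69), and those around the stop codon 14 (4.23%, 2.33 to 6.99) against 4.58% (4.08 to 5.13). In each class the interval of the members overlapped that of the other rows. In the top 81, 66 of which could be placed, the 3′UTR held 4 rows (6.06%, 1.68 to 14.8) and coding sequence 49 (74.2%, 62.0 to 84.2). The top 82 rows of HL60/MX2 likewise had 5 of 68 placed rows in the 3′UTR (7.35%, 2.43 to 16.3) and 18.8% (17.5 to 20.2) in the lower 50% of its scores.

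**Figure D3:**
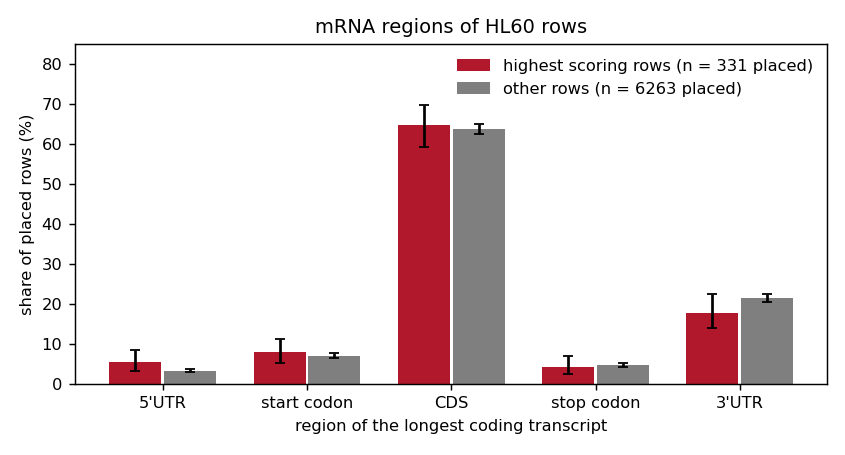
Share of placed rows in each region of the longest coding transcript, in %, for the 331 placed members (red) and 6263 placed other rows (grey), with exact 95% intervals for counting error. Coding sequence holds 64.7% of members and 63.7% of other rows, and the intervals of both groups overlap in every region.

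By region, the members with the highest scores were ZNF585A, the Rab exchange factor gene DENND2B (2058) and AMY1C in the 5′UTR. In the window around the start codon they were PLEKHH2, SNX32 and MYOF, which encodes the membrane repair protein myoferlin and scored 2180. Coding sequence was led by ANTXRL, IGFN1 and PALD1. In the window around the stop codon they were the cyclophilin-like PPIAL4A (1613), PRTG (1355) and TTC29 (1201). In the 3′UTR they were ANKRD20A3 (1546), OR51E1 and the ubiquitin-conjugating enzyme gene UBE2D1 (1391). PPIAL4A, ANKRD20A3 and AMY1C consisted of repeated sequence, and the other 12 of these 15 had none or under 50%.

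First exons held 8.16% (5.44 to 11.6) of placed members and 6.26% (5.67 to 6.89) of other rows, internal exons 63.1% (57.7 to 68.4) and 63.4% (62.1 to 64.6), and last exons 25.1% (20.5 to 30.1) and 28.3% (27.1 to 29.4). A whole exon lay inside 139 of 405 members (34.3%, 29.7 to 39.2) and inside 28.1% (27.1 to 29.1) of the other rows. In the top 81 it lay inside 35 (43.2%, 32.2 to 54.7), among them ANTXRL, PALD1, POTEM and GAGE12G. At least 1 end at an exon end was found for 283 members (69.9%, 65.2 to 74.3) and 67.5% (66.5 to 68.6) of other rows.

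The members had a median length of 127 bp, with quartiles of 75 and 241, and the other rows one of 129 bp, with quartiles of 69 and 228. The long tail differed over all rows. At least 500 bp was reached by 30 members (7.41%, 5.05 to 10.4) and by 3.95% (3.53 to 4.41) of the other rows. Among rows of repeated sequence these shares were 13.8% (6.15 to 25.4) and 4.18% (2.36 to 6.80). Among the remaining rows they were 6.34% (4.02 to 9.44) and 3.94% (3.51 to 4.42). Within each kind of row the intervals overlapped. Rows shorter than 50 bp made up 15.8% (12.4 to 19.7) of members and 17.04% (16.2 to 17.9) of other rows, with overlapping intervals. After MUC12 and IGFN1, the longest members lay in the 3′UTR of the kainate receptor gene GRIK4 (1502 bp), in the 3′UTR of ZNF518B (1389 bp) and in RP11-467N20.5 (1362 bp). The longest of the other rows measured 1341 bp, below each of these 5. The shortest were 2 bp in GOLGA6A, 4 bp in LRRK1, 5 bp in MRC1 and MRC1L1 and 6 bp in KIF5C. Of the 64 members shorter than 50 bp, 58 began or ended at an exon end (90.6%, 80.7 to 96.5), and 91.8% (90.2 to 93.2) of the short other rows did. Members in the 3′UTR had a median of 288 bp and other 3′UTR rows one of 248 bp, and in coding sequence the medians were 106.5 and 99 bp.

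GC content was 47.0% ± 9.36 (SD over 405 members) and 46.0% ± 10.7 (SD over 7661 other rows), and in windows of at least 200 bp around the rows 45.2% ± 9.13 and 43.95% ± 9.41. The difference of the means was not tested. In coding sequence it was 48.0% ± 8.20 and 47.3% ± 10.1, and in the 3′UTR 40.7% ± 8.32 and 39.5% ± 9.06. The motifs searched were those the study reported from its own m7G peaks, so they are not independent of these data. GGAAA or GGAAG, on the strand of the row, was found in 200 of the 403 members long enough to hold it (49.6%, 44.6 to 54.6). The other rows had it in 44.2% (43.1 to 45.4), or 45.5% once weighted to the lengths of the members. The intervals of members and other rows overlapped. In the rows just below, GGAAA or GGAAG was found in 40.1% (35.3 to 45.1). The group of CTGGA or CTGGG and of CTGTA or CTGTG was found in 57.6% (52.6 to 62.4) of members and 56.7% (55.6 to 57.8) of other rows. Of the sequences above, POTEM and ST8SIA1 each held GGAAA or GGAAG at 2 places and the other 7 at none. A match is only a description of the letters, and the position of the methylated base within a row is not known.

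The chromosome with the largest share of its rows among the members was 18, with 24 of 253 (9.49%, 6.17 to 13.8), followed by 10 with 30 of 399 (7.52%, 5.13 to 10.6) and 16 with 15 of 200 (7.50%, 4.26 to 12.1). The interval lay above 5.02% for chromosomes 18 and 10 and covered it for the others that had members. Chromosome Y had 0 members of 5 rows (exact upper bound 52.2%). Among the 23 chromosomes with members, the lowest shares were those of 14 (2.82%, 1.14 to 5.73), 17 (3.21%, 1.55 to 5.82) and X (3.39%, 1.47 to 6.57). With so many chromosomes looked at, some intervals may miss 5.02% by counting error alone. Per megabase of protein-coding exon there were 12.04 members on chromosome 18, 7.17 on 10 and 1.68 on 17. The other rows were also densest on 18, at 115 per megabase.

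**Figure D4:**
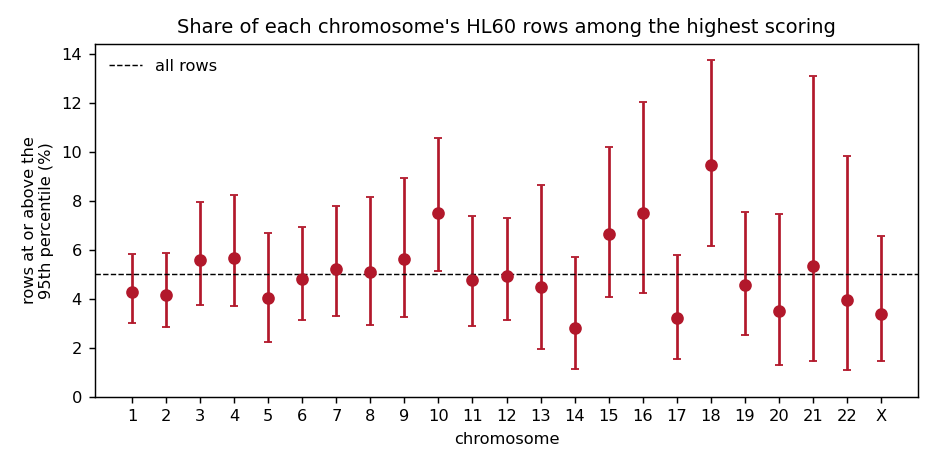
Share of the HL60 rows of each chromosome that reached the threshold, in % (points, with exact 95% intervals for counting error), beside 5.02% for all rows (dashed). Chromosomes 18 and 10 lie highest, at 9.49% and 7.52%, among intervals that mostly cover the line.

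Of the 24 members on chromosome 18, 23 were not of repeated sequence. ZNF236 at 3100 stood alone at the top, and the next in a gene was TCF4, which encodes an E-protein transcription factor, at 1178. They were followed by SETBP1 (1120), INO80C (1074), a subunit of a chromatin remodelling complex, PIEZO2, and FECH (1047), the ferrochelatase of haem synthesis. The adhesion gene LAMA3 and the netrin receptor gene DCC (707) were also among them. These genes were picked out after their values were seen. In the top 81 chromosome 18 had 2.47% of the rows, while over all members it had 5.93% (3.83 to 8.69). All 4 members on chromosome 22 were of repeated sequence.

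An HL60/MX2 row was overlapped, over 1 bp or more of the same strand, by 42 members (10.4%, 7.58 to 13.8), beside 6.13% of all HL60 rows. The other rows had 453 (5.91%, 5.39 to 6.46) and the rows just below 8.05% (5.60 to 11.1). Among the top 81 there were 9 (11.1%, 5.21 to 20.05). The remaining 363 members, SMYD3, ANTXRL and LPA among them, overlapped no HL60/MX2 row. Members without repeated sequence overlapped in 39 of 347 cases (11.2%, 8.12 to 15.04), and repeated ones in 3 of 58 (5.17%, 1.08 to 14.4). In the other rows the order was opposite, with 419 of 7302 rows without repeated sequence (5.74%, 5.22 to 6.30) and 34 of 359 repeated ones (9.47%, 6.65 to 13.0). The interval of the repeated members covered both 11.2% and 9.47%, so the order within members was not settled. Where 50% of both peaks had to be shared, the shares were 6.67% of members and 3.35% of other rows. Taken by gene, 191 of the 370 genes with a member had a row somewhere in HL60/MX2 (51.6%), and 45.3% of all 5328 genes with an HL60 row did.

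Scores cannot be set against each other across the lists, so the overlapped row was placed by its percentile within HL60/MX2. The rows overlapped by members had a median percentile of 74.1 and ranged from 4.20 to 100. Those overlapped by other rows had a median of 58.6. The top 5% of HL60/MX2 held 8 of the 42 (19.0%, 8.60 to 34.1) and 24 of the 453 (5.30%, 3.42 to 7.78). For the 9 in the top 81 of HL60 the percentile was 83.7 or above. Over all 495 overlapping rows, the scores of the lists had a Spearman rho of 0.06 as a description over rows of 1 library each, a correlation too weak to call a finding.

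**Figure D5:**
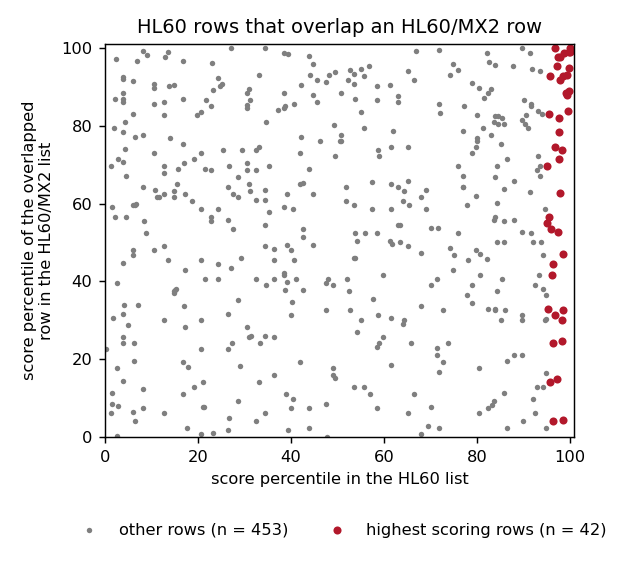
Score percentile of each HL60 row that overlaps an HL60/MX2 row (horizontal axis) against the percentile of the overlapped row in its own list (vertical axis), with 42 members in red and 453 other rows in grey. The members span 4.20 to 100 on the vertical axis, with a median of 74.1 against 58.6 for the other rows.

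ZNF236 stood at the recurring value of 3100 in both lists, which does not show equal enrichment, and the MOB4 row at the 98.9th percentile of HL60/MX2. LMTK3 and MYOF had peaks with the same ends in both lists, at percentiles of 99.1 and 89.0 in HL60/MX2. PARP12 stood at 94.8, OPRPN, which encodes a secreted salivary and lacrimal protein, at 88.0, the matrix protein gene EGFLAM, where 7 bp overlapped, at 93.1, and CTAGE9 at 88.4. C2CD6, a gene of the sperm flagellum, stood at 83.7 and UNC13A, which primes synaptic vesicles, at 98.6, both with the same ends in both lines, as had CHP2, a calcineurin-like calcium-binding protein, at 52.6. ST8SIA1, the GD3 ganglioside synthase, stood at 30.0. At the low end, the 3′UTR of the chemokine gene CXCL2 scored 1040 in HL60 and lay at the 4.32nd percentile of HL60/MX2, and the phosphatase subunit gene PPP2R3A lay at 4.20. A row high in HL60 was thus met across nearly the whole range of HL60/MX2 scores.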

How the data were processed

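Poly(A) RNA of HL60 and HL60/MX2 cells was decapped, fragmented and enriched with an m7G antibody, 1 library per line. According to the submitters' processing notes, reads were trimmed with cutadapt 1.9.3 and aligned to hg19 with HISAT2 2.0.4, and STAR was also used. The authors called peaks with MACS and kept those over exons of protein-coding genes. The version and settings of MACS are not given in the sources used here. Each deposited list has 6 columns, and the score in the deposited files has no stated scale, so scores were compared within a list only. Depth is unknown because the lists hold no counts of reads, and precision rests on how many rows there are. Input libraries and RNA levels were not analysed here.

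Starts were turned from counting from 0 to counting from 1. Members were rows at or above the 95th percentile of the score. Genes were those of GENCODE release 44 placed on hg19, 20162 protein-coding genes, and a row went to the gene whose exons it overlapped most on its strand. Regions were read from the longest coding transcript, where windows reaching 100 nt to either side of the start and the stop codon formed classes of their own, again by largest overlap. 50-mers were counted over the hg19 primary assembly on both strands, in windows of at least 100 bp. This measure was added after seeing the data, in place of a share of repeat-masked bases, which could not be computed because the genome file has no lower-case bases. The 4 rows with no sequence in the genome file, none a member, were left out of sequence measures. Shares carry exact Clopper-Pearson 95% intervals, and no test was made. Steps were tested on simulated data and run with matplotlib 3.10.9, numba 0.67.0, pysam 0.24.0, scipy 1.17.1 and numpy 2.4.6 under Python 3.11.15.

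The members and gene lists were chosen with earlier results of these data known. Named were the 20 highest members, genes with the most members, the 3 rows on each side of the threshold, the top 3 of each region, the 10 highest members overlapping HL60/MX2, the 5 longest and 5 shortest, up to 4 members per gene list, the markers with a row, and sequences of 60 to 300 bp wholly in coding sequence. The other genes were named after their values were seen. One member that these rules would name is not reported here. Alternatives changed the percentile, the row length, the rows per gene, the transcript used, the window around codons, the overlap rule and the treatment of repeated sequence.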

Additional observations from a re-analysis of the deposited data

How the results depend on the processing

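Of the alternative values, 91 stayed within the counting interval, the spread or, for counts of genes, 1.5 times the reported value, and 27 did not. Among the 91, the 370 assigned genes became 269 with 1 row per gene, which leaves fewer rows by construction. With the 99th percentile as the threshold there were 72 assigned genes, 88.9% of rows over a protein-coding exon, a median length of 109 bp, 74.2% in coding sequence and 6.06% in the 3′UTR, 43.2% covering a whole exon, 49.4% with the CTG motifs, 32.1% with repeated sequence, 12.3% on chromosome 1 and 2.47% on chromosome 18. With the 90th percentile there were 723 assigned genes and 10.3% with repeated sequence. Among rows of at least 50 bp the median length was 154 bp, GGAAA or GGAAG was in 56.3% and the CTG motifs in 65.4%. With 1 row per gene 39.8% covered a whole exon. Without rows of repeated sequence, an alternative chosen after seeing the data, 96.9% lay over a protein-coding exon. With any isoform the 5′UTR held 8.49%, the start codon 16.2%, coding sequence 44.6% and the stop codon 11.9%, and with 50 nt around the codons the start codon held 3.32% and the stop codon 1.21%. The region shares thus depended on these definitions. With an overlap of 50% of both peaks 6.67% of members met an HL60/MX2 row. GC content in at least 200 bp was 45.2%. Weighted to the members' lengths, the other rows had a GC content of 45.7% and GGAAA or GGAAG in 45.5%.

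With 1 library per line, differences between rows, libraries and lines cannot be told apart, and intervals cover counting error only. No paired analysis was possible because each line has 1 enriched library. The share of reads with several matching places in each row is not known, since no read counts are given. The gene named for rows of repeated sequence, or the copy within that gene, is uncertain.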
